A study of Mus musculus with 7 samples.

Results

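The 10 genes described here encode the enzymes that supply NADPH, or that belong to the pathway supplying it: the malic enzymes Me1, Me2 and Me3, the isocitrate dehydrogenases Idh1 and Idh2, and the pentose phosphate enzymes G6pdx, Pgls, Pgd, Taldo1 and Tkt. They were taken by name from a table of 47069 genes, in which each of the 10 names occurred once. RNA from the duodenum of 7 male mice had been sequenced, 1 library per mouse, to ask what activating the nuclear receptors LXR (liver X receptors) does to gene expression in the intestine. The mice were 8 to 12 weeks old and carried no engineered allele named in the labels. Samples are labelled C57BL/6, while the design text writes C57BL/6J. Vehicle, 0.5% carboxymethylcellulose, was given to 4 mice, and T09 (T0901317) at 50 mg/kg/day to 3. No source used here gives the length or the route of treatment.

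NADPH is the reducing agent of fatty acid and sterol synthesis, of the cytochrome P450 system and of the glutathione and thioredoxin systems. In the cytosol it is made by malic enzyme from malate, by isocitrate dehydrogenase from isocitrate, and by the oxidative steps of the pentose phosphate pathway from glucose 6-phosphate. Mitochondria hold their own malic enzymes and isocitrate dehydrogenase. LXR sense oxysterols and drive genes of sterol export and, through SREBP-1, of lipid synthesis. In liver and fat, Me1 and G6pdx are known as lipogenic genes. In several mouse tissues they are also targets of the stress-responsive factor NRF2.

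Of the 10 genes, 3 rose with T09 and 0 fell (edgeR quasi-likelihood test, adjusted p under 0.05 over 14250 genes). Over all genes tested, 4.31% were called, 1.44% higher and 2.87% lower, and DESeq2 called 2.61% higher. Me1 was 4.74-fold higher, Idh1 1.62-fold and G6pdx 1.44-fold. The first of these calls held in each of 16 alternative analyses, whereas those of Idh1 and G6pdx held in 11 and 12. Both were lost without vehicle replicate 4, T09 replicate 2 or T09 replicate 3, and that of Idh1 also without vehicle replicate 3. The median log2 fold change of the 10 genes was 0.18, beside 0.02 over all genes tested. Of the 10, 8 lay above 0, beside 52.9% of all genes tested. Groups that did not overlap, with T09 higher, were seen for 4 of the 10, the fourth being Pgd, and for 7.07% of all genes tested, with 9.69% lower and 16.8% in either direction.

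Promoter stretches of the 3 genes that rose are shown, with matches to the antioxidant response element (ARE), a site that NRF2 is known to bind. Whether NRF2 or any other factor had a part in the rise was not tested. The sequences are from RefSeq on GRCm38.p6, 120 bases before to 10 after the annotated start, read 5′ to 3′ on the gene's strand, which is the minus strand for all 3. Capitals mark a match to the ARE core TGACNNNGC on either strand. They lie at chr9:86695905-86696034 (Me1), chrX:74428871-74429000 (G6pdx) and chr1:65186470-65186599 (Idh1).
Me1: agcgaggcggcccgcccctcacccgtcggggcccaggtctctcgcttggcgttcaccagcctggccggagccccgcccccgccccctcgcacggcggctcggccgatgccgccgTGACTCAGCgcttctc
G6pdx: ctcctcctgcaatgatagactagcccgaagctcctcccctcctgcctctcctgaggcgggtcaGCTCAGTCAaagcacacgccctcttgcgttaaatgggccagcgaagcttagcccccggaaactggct
Idh1: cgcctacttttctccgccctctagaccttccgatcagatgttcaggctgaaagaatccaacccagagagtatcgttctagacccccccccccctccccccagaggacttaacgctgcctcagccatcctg

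In Me1 the match runs from base -6 to base 3 relative to the start. In G6pdx it runs from -57 to -49 and lies on the opposite strand, where it reads TGACTGAGC. RefSeq windows of 300 bases (250 before to 50 after a start) were at hand for 9 of the 10 genes, 12 windows in all. The core TGACNNNGC was found in 3 of the 12 windows, those of Me1, of G6pdx and of 1 of the 2 starts of Pgd, and in 12.4% of 32851 windows of all genes. The looser core TGANNNNGC, which includes every match of the stricter one, was in 8 of the 12 windows and in 41.3% of all windows. On either strand, no window of the 9 genes held TCACNCCAC (a sterol response element, 1.24% of all windows), CACGTG (the E-box, 7.15%), AGGTCA repeated after 4 bases (the DR4 spacing of LXR sites, 0.0152%) or after 1 base (the DR1 spacing of PPAR sites, 0.0396%). These are matches of letters and say nothing of binding.

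Malic enzymes turn malate into pyruvate. Me1, the cytosolic NADP-dependent enzyme (ENSMUSG00000032418, chromosome 9, 86581371 to 86695953, GRCm38), was at 32.4, 51.1, 40.3 and 48.9 CPM (counts scaled to the library total) in vehicle replicates 1 to 4. In T09 replicates 1 to 3 it was at 152, 208 and 254 CPM. The lowest T09 library thus stood well above the highest vehicle library. It rose by 2.24 on the log2 scale (SE 0.20; adjusted p 8.75e-04 by edgeR), and its p ranked 14 among all genes tested. The means were 43.2 ± 8.55 CPM (SD, n = 4) and 204.5 ± 50.7 CPM (SD, n = 3). An antisense gene that overlaps its exons, A330041J22Rik, had at most 3 counts in any library.

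Me2, the mitochondrial malic enzyme that prefers NAD, was at 483, 626, 606 and 595 CPM with vehicle and at 611, 752 and 754 CPM with T09. T09 replicate 1 lay within the vehicle range. Its log2 fold change of 0.29 (95% interval 0.00459 to 0.573) did not pass (edgeR adjusted p 0.272). Me3, the mitochondrial NADP-dependent enzyme, was near the limit of detection. Its raw counts were 22, 15, 15 and 13 with vehicle and 11, 11 and 15 with T09, too few to read a change from. Its log2 fold change was -0.42, with a 95% interval from -1.24 to 0.39 (edgeR adjusted p 0.607).

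Isocitrate dehydrogenases turn isocitrate into 2-oxoglutarate. Idh1, the cytosolic and peroxisomal NADP-dependent enzyme (ENSMUSG00000025950, chromosome 1, 65158616 to 65186500), was at 529, 552, 425 and 396 CPM with vehicle. With T09 it was at 670, 780 and 859 CPM. Vehicle replicates 3 and 4 were lower than replicates 1 and 2, and all 4 lay below the T09 libraries. It rose by 0.69 on the log2 scale (SE 0.15; adjusted p 0.0300 by edgeR). Dropping single libraries gave 0.61 to 0.79, with edgeR's adjusted p up to 0.119.

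Idh2, its mitochondrial counterpart, was at 40.6, 54.1, 59.1 and 50.4 CPM with vehicle and 49.1, 62.8 and 54.0 CPM with T09. The groups overlapped, and the log2 fold change of 0.11 (95% interval -0.20 to 0.43) did not pass (edgeR adjusted p 0.731).

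**Figure D1:**
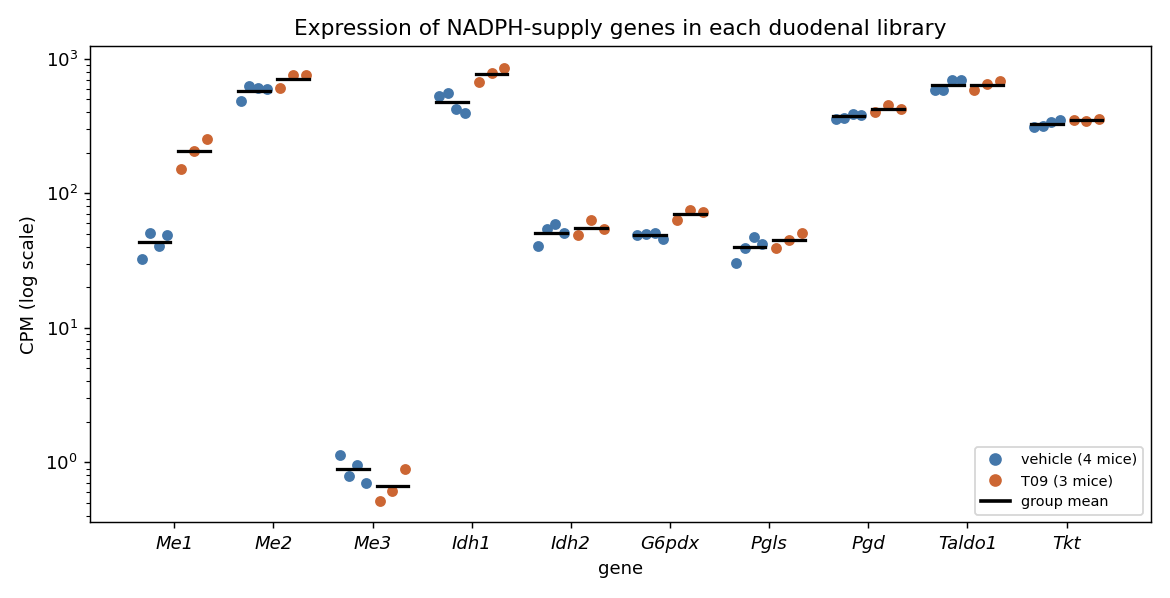
CPM of each of the 10 genes in each library on a log axis, with vehicle mice in blue, T09 mice in orange and a bar at each group mean. The T09 libraries lie above all vehicle libraries for Me1, Idh1, G6pdx and Pgd, and the groups overlap for the other 6 genes.

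The oxidative branch of the pentose phosphate pathway has 3 enzymes. G6pdx, glucose-6-phosphate dehydrogenase (ENSMUSG00000031400, chromosome X, 74409483 to 74429194), makes NADPH at its entry. It was at 48.8, 50.1, 50.3 and 45.6 CPM with vehicle and at 62.8, 75.6 and 72.4 CPM with T09. The vehicle libraries were close together and the groups did not overlap. It rose by 0.53 on the log2 scale (SE 0.09; adjusted p 0.0164 by edgeR). Dropping single libraries gave 0.47 to 0.61, with edgeR's adjusted p up to 0.0851.

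Exons of G6pdx overlap those of Ikbkg, a gene of NF-kappaB signalling on the other strand. No source used here says how the counting treated strand, so reads of this stretch could belong to either gene. Ikbkg was at 28.7 to 32.5 CPM with vehicle and 33.2 to 37.6 CPM with T09, and its log2 difference of 0.17 (SE 0.10) did not pass (adjusted p 0.415 by edgeR). G6pd2, an intronless copy of the same enzyme, had 0 counts in all 7 libraries, which allows up to 3 counts in each, or 0.142 to 0.191 CPM.

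Pgls, the lactonase of the middle step, was at 30.2, 39.0, 47.5 and 42.1 CPM with vehicle and 39.3, 45.0 and 50.7 CPM with T09. Vehicle replicate 1 was the lowest, replicate 2 lay just under the lowest T09 library, and replicates 3 and 4 lay among those of T09 (log2 fold change 0.18, 95% interval -0.17 to 0.53, edgeR adjusted p 0.609). Its exons overlap Fam129c, which had 8 to 32 counts in a library. Pgd, 6-phosphogluconate dehydrogenase, makes the NADPH of the last oxidative step. It was at 357, 362, 390 and 380 CPM with vehicle and at 404, 449 and 420 CPM with T09. The groups did not overlap, but they lay close together. The log2 fold change of 0.19 (95% interval -0.01 to 0.39) did not pass (edgeR adjusted p 0.317).

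Taldo1 (transaldolase) and Tkt (transketolase) rearrange sugars in the non-oxidative branch and make no NADPH themselves. Taldo1 was at 590, 590.1, 698 and 690 CPM with vehicle and at 589, 646 and 686 CPM with T09. The T09 libraries spanned nearly the same range as those of vehicle, and the log2 fold change was -0.00330 (95% interval -0.25 to 0.24, edgeR adjusted p 0.992). Tkt was at 309, 317, 336 and 353 CPM with vehicle and at 353, 345 and 357 CPM with T09. Its T09 libraries sat at the top of the vehicle range (log2 fold change 0.10, 95% interval -0.11 to 0.30, edgeR adjusted p 0.639). The related genes Tktl1 and Tktl2 had 0 counts in all 7 libraries.

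**Figure D2:**
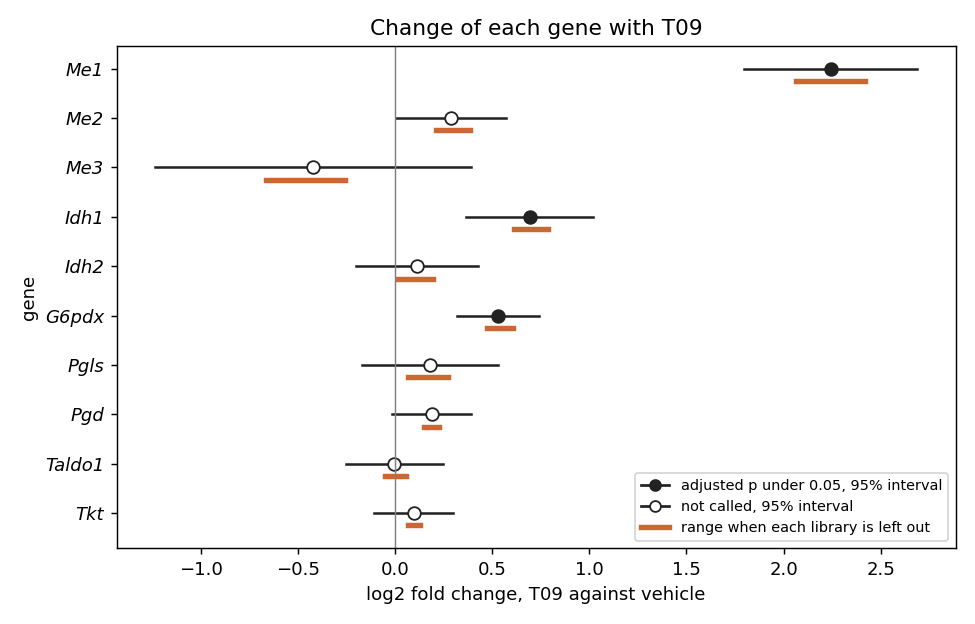
Log2 fold change of each gene with T09 against vehicle (edgeR). Points are the estimates (filled where adjusted p was under 0.05), black lines their 95% intervals, and orange bars the range over fits that each drop 1 library; Me1, Idh1 and G6pdx are filled, and the interval of Me2 ends just above 0.

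The changes of 5 pairs of genes were also compared within each library, where scaling between libraries plays no part. The ratio of Me1 to Me2 counts was 1.95 higher with T09 on the log2 scale (SE 0.15), going from -3.76 to -1.81. That of Me1 to Me3 was 2.64 higher (SE 0.30), with few counts of Me3 behind it. That of Me1 to Idh1 was 1.53 higher (SE 0.24), so Me1 and Idh1 changed by different amounts. That of G6pdx to Tkt was 0.43 higher (SE 0.11), in which the entry enzyme rose relative to transketolase. In these 4 ratios every T09 library lay above every vehicle library (two-sided exact permutation test over 35 splits, p = 0.0286 each, the smallest possible, and 0.0357 adjusted over the 5 ratios). The ratio of Idh1 to Idh2 was 0.58 higher (SE 0.22), with groups that overlapped, and did not pass (exact permutation p = 0.0857, adjusted 0.0857). With a library left out, 4 against 2 or 3 against 3, no ratio can pass 0.05.

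**Figure D3:**
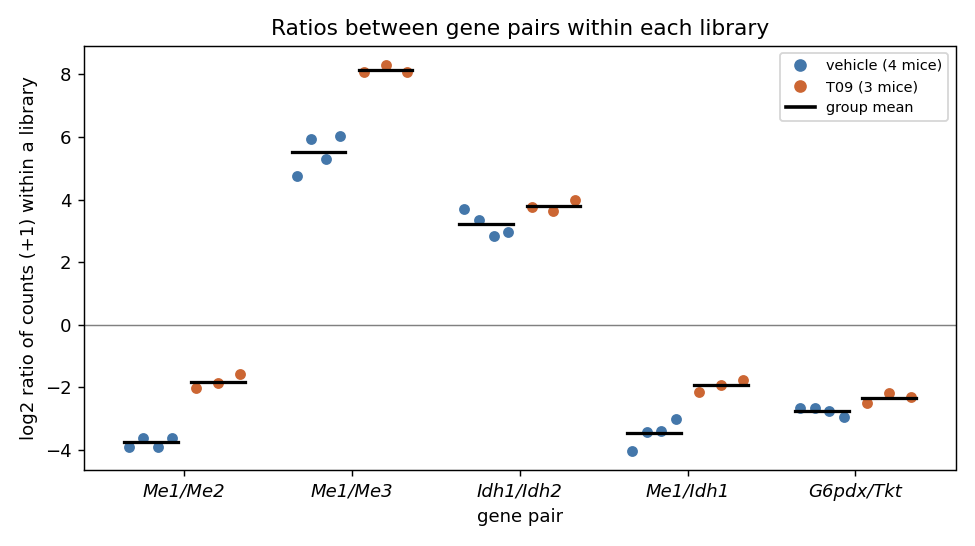
Log2 ratio of counts (with 1 added) for 5 gene pairs within each library, vehicle in blue, T09 in orange, with a bar at each group mean. The T09 libraries lie above all vehicle libraries for every pair except Idh1/Idh2, in which vehicle replicate 1, at 3.70, lies among them.

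Levels were compared between genes as CPM per kilobase of the length the table lists. In vehicle duodenum Taldo1 stood highest, at 522 ± 48.8 CPM per kilobase (SD, n = 4). Me2 (235 ± 26.2) and Idh1 (207 ± 33.2) came next, and their ranges overlapped. Pgd (102 ± 4.27) and Tkt (102 ± 6.08) were also not apart. Idh2 followed at 28.5 ± 4.37 CPM per kilobase and G6pdx at 18.4 ± 0.809. Pgls (14.8 ± 2.69) overlapped in range with both G6pdx and Me1 (13.1 ± 2.60). Me3 was last at 0.200 ± 0.0434, with Me1 65.6 times higher by their means. Of the 3 malic enzymes' summed level per kilobase, Me1 made up 4.73% to 5.76% in vehicle mice, and 8.45% ± 0.907 (SD, n = 4) by the deposited FPKM.

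With T09 the order changed at Me1 and Idh1. Me1, at 62.1 ± 15.4 CPM per kilobase (SD, n = 3), moved from the ninth to the sixth place, above Idh2 (30.9 ± 3.88), G6pdx (26.5 ± 2.52) and Pgls (16.7 ± 2.12). Idh1 (334 ± 41.3) stood above Me2 (287 ± 33.5), with overlapping ranges. Me1 made up 17.6% ± 2.23 of the 3 malic enzymes' level per kilobase, from 5.24% ± 0.582 with vehicle, without overlap. By the deposited FPKM it was 26.2% ± 2.96 (SD, n = 3). The 5 pentose phosphate genes summed to 704 to 816 CPM per kilobase with vehicle and 738 to 830.5 with T09, overlapping ranges. Their oxidative part was 17.8% ± 0.720 (SD, n = 4) with vehicle and 20.2% ± 0.794 (SD, n = 3) with T09, without overlap.

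**Figure D4:**
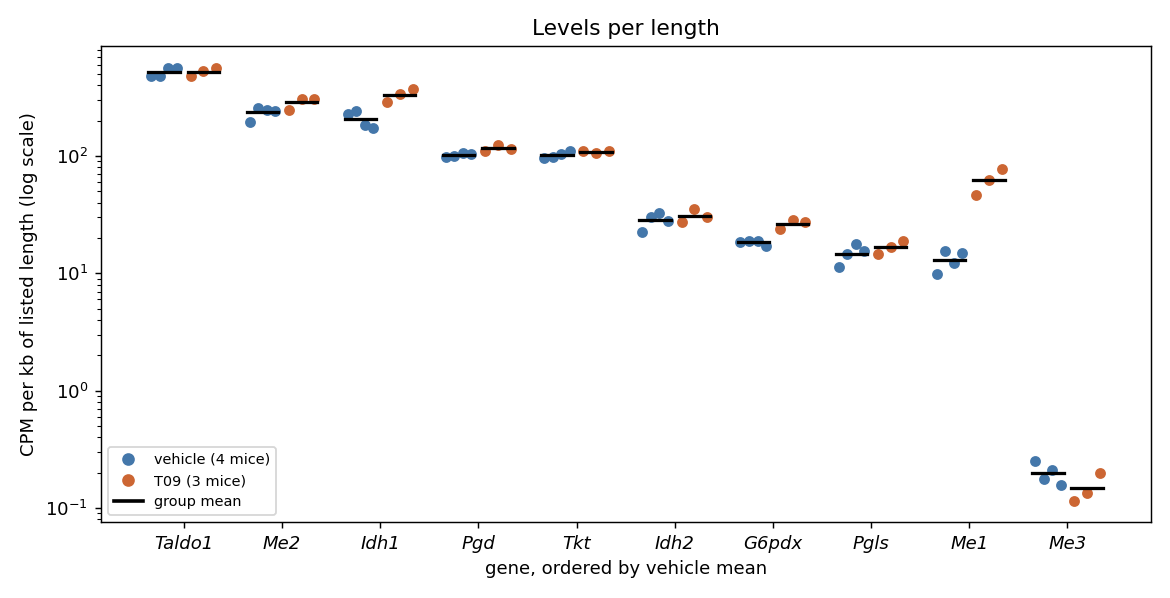
CPM per kilobase of listed length for the 10 genes in each library on a log axis, ordered by the vehicle mean, with vehicle in blue, T09 in orange and a bar at each group mean. Me1 goes from 13.1 to 62.1 CPM per kilobase, from below Pgls to above Idh2.

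Summed over the 10 genes, the libraries held 2421 to 2653 CPM with vehicle and 2931 to 3509 CPM with T09. Without Me1 the sums were 2389 to 2613 and 2779 to 3255 CPM. Both sums were higher in every T09 library than in any vehicle library. Idh1 is part of both sums, and its means were 475 CPM with vehicle and 770 CPM with T09. No sum without Idh1 was taken, and the sums are not corrected for length. They therefore do not show that the genes rose as a set.

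Libraries held 15395535 to 20494485 counts. Marker lists that moved with the groups, or set 1 library apart, are given here or with the results flagged below. Their part in the results above was not tested. All 12 smooth muscle markers were called lower with T09, and their summed share of counts was 0.155% to 0.253% with vehicle and 0.0438% to 0.0706% with T09. Of enteric neuron and glia markers 6 of 9 tested were called lower, and all 9 had a log2 fold change below 0. Their share was 0.00207% to 0.00375% with vehicle and 8.26e-04% to 8.64e-04% with T09. Of the 10 enterocyte markers, the absorptive cells of the tissue, 0 were called by edgeR, and their share was 3.16% to 3.52% with vehicle and 2.67% to 3.14% with T09. All of these markers had counts. In whole tissue, fewer cells of a type and less RNA per cell cannot be told apart. Adipocyte markers, 7 in all, held 8.31e-04% to 0.0241% of counts with vehicle and 1.07e-04% to 5.71e-04% with T09, without overlap. All 5 that were tested lay below 0, with a median log2 fold change of -5.32, and 0 were called by edgeR. Vehicle replicate 4 held the 0.0241%, and the other vehicle libraries at most 0.00296%. Without it the log2 fold change of Me1 was 2.31 (edgeR adjusted p 0.00377). T09 replicate 1 held the most counts in markers of B and plasma cells, 0.0768%, with 0.00823% to 0.0366% in the other libraries. It also held the most in macrophage and dendritic cell markers, 0.0204% beside at most 0.0106%, and in endothelial markers, 0.00454% beside at most 0.00180%. With vehicle replicate 4 and T09 replicate 1 both left out, Me1, Idh1 and G6pdx were all still called.

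Other genes of NADPH metabolism were compared in 8 lists. Leaving out LXR index genes, these held 83 tested genes, of which 11 rose and 2 fell. Over all genes tested, 1.44% were called higher and 2.87% lower, the shares to set beside the count of each list below. The lists were chosen with earlier results known, and some share genes. In the pentose phosphate and ribose list 0 of 9 tested genes were called by edgeR (median log2 fold change 0.21), 2 were called higher by DESeq2, and 1 by edgeR without T09 replicate 1. Its members H6pd, the dehydrogenase of the endoplasmic reticulum (log2 fold change 0.60, edgeR adjusted p 0.169), and Rpia, the ribose phosphate isomerase (0.59, edgeR adjusted p 0.0615), did not pass. Of the transhydrogenase, folate route and NAD kinase genes 1 of 8 rose, Mthfd2, a mitochondrial folate enzyme, by 0.94 on the log2 scale (SE 0.21; adjusted p 0.0409 by edgeR). That call was lost whenever any library was left out. The 5 NAD-linked isocitrate and malate dehydrogenase genes had none called and a median of 0.05.

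Of 16 genes that supply citrate, pyruvate and malate, 1 rose, the mitochondrial aspartate aminotransferase Got2 (by 0.44 on the log2 scale, SE 0.09; adjusted p 0.0306 by edgeR), a call lost without any of 5 of the libraries. The list's median was 0.01. Acly, which splits citrate in the cytosol, was at 93.0 CPM in vehicle replicate 4 and at 37.2 to 52.4 CPM in the other vehicle libraries. Its log2 fold change of -0.76 did not pass (edgeR adjusted p 0.253), and without that library it was -0.39. Of 15 lipogenic SREBP-1 and ChREBP targets tested, 3 rose: Srebf1, which encodes SREBP-1, the desaturase gene Scd2, and Mid1ip1, a regulator of fatty acid synthesis. Of the 15, 8 lay above 0, with a median log2 fold change of 0.12 and a lowest of -3.89. Without vehicle replicate 4, 5 were called higher. Scd1, the main desaturase gene of lipogenic tissues, was at 7.57, 14.3, 52.3 and 503 CPM with vehicle and at 2497, 4105 and 4480 CPM with T09. The groups did not overlap, with vehicle replicate 4 far above the other vehicle libraries. Its log2 fold change of 4.68 did not pass (edgeR adjusted p 0.0735), and without vehicle replicate 4 it was 7.23 (edgeR adjusted p 0.00629). All 8 LXR index genes rose, Srebf1 and Scd2 among them, with a median of 2.73. The 10 genes described here had a median of 0.18.

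Among enzymes that use NADPH, the 11 tested genes of lipid and sterol synthesis went both ways. Of these, 1 was called higher and 2 lower, 4 lay above 0, and the median log2 fold change was -0.04. Por, the cytochrome P450 reductase, rose from 567 ± 44.2 CPM (SD, n = 4) to 1106 ± 102 CPM (SD, n = 3). The sterol enzymes Sqle and Cyp51 fell, by 1.41 and 0.98 on the log2 scale. In redox defence and carbonyl reduction 4 of 14 tested genes rose and 0 fell, and 2 rose without vehicle replicate 2 or 4 or T09 replicate 2 or 3. The aldo-keto reductase Akr1b8 went from 6.80 ± 3.30 to 320.5 ± 61.2 CPM and the carbonyl reductase Cbr3 from 2.65 ± 0.835 to 18.4 ± 4.78 CPM. Cbr1 and the glutathione reductase Gsr had log2 fold changes of 0.60 (SE 0.12) and 0.73 (SE 0.16, edgeR adjusted p 0.0372). Values of Akr1b8, Cbr1 and Cbr3 are uncertain where reads match their close relatives too.

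Of 11 tested NRF2 targets outside NADPH supply, 4 rose and 0 fell, with a median of 0.41, and 2 rose without vehicle replicate 3 or 4 or T09 replicate 2 or 3. The 4 were Gsr, the quinone reductase Nqo1 (1.05 on the log2 scale, SE 0.15; adjusted p 0.00630 by edgeR) and both subunits of glutamate-cysteine ligase, Gclc (0.94, SE 0.16) and Gclm (0.57, SE 0.11). The other tested genes of this list were not called. Of the 11, 8 lay above 0, beside 52.9% of all genes tested, and the lowest log2 fold change was -0.13. Whether the list rose as a whole was not tested. Calls of Gclc, Gclm, Gsr and Cbr1 did not survive the loss of some single library. Those of Nqo1, Por, Sqle, Cyp51, Akr1b8 and Cbr3 held in every such fit.

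**Figure D5:**
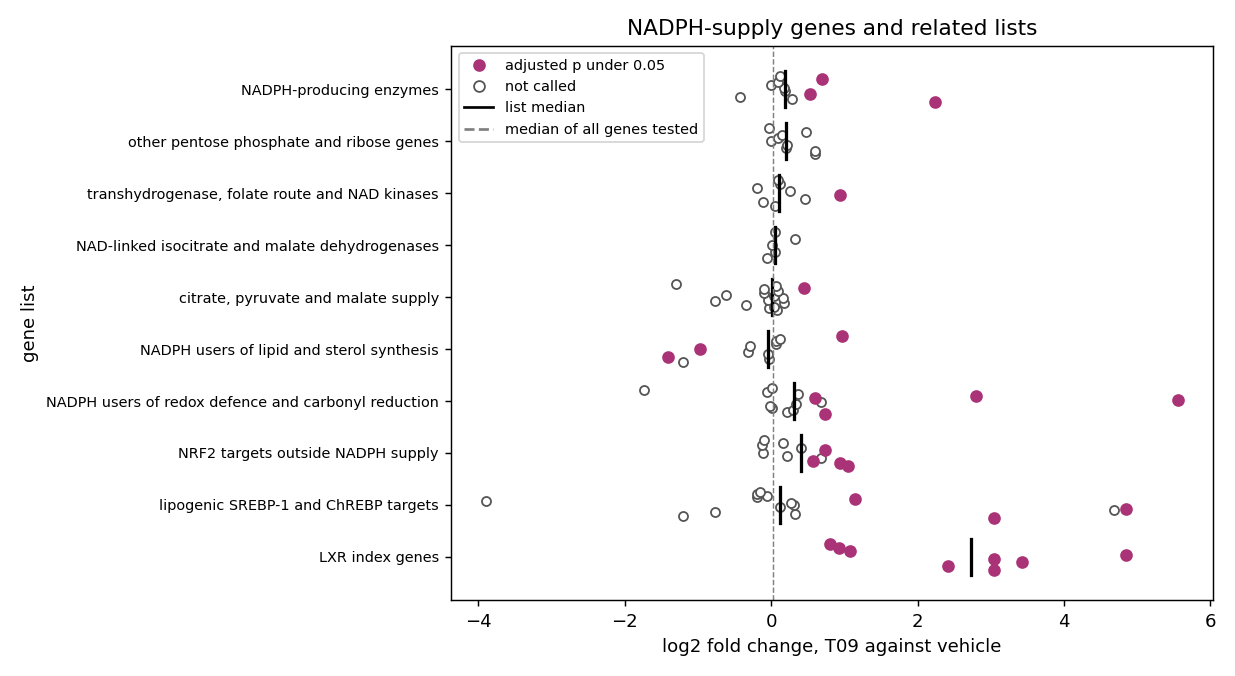
Log2 fold change with T09 of every tested gene of the 10 described here and of 9 related lists, filled where edgeR's adjusted p was under 0.05, with a bar at each list's median and a dashed line at the median of all genes tested. The median of the 10 genes, 0.18, lies close to those of the other pentose phosphate and the lipogenic lists and far below the 2.73 of the LXR index genes.

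For the 3 genes that rose, the genes most alike in profile were sought among the 11924 named genes averaging 1 CPM or more. Likeness was the root mean square distance between log2 CPM profiles over the 7 libraries, each centred on its own mean. Closest to Me1 were the glutathione transferases Gsta3 (distance 0.23) and Gstm1 (0.24) and the peroxisomal thiolase Acaa1b (0.25), with log2 fold changes of 2.05, 2.15 and 1.95. Both transferases belong to families whose reads can be shared. Closest to G6pdx were the mitochondrial ribosomal protein gene Mrpl32 (0.05), the phosphoglucomutase gene Pgm2 (0.06) and Hadha, of mitochondrial fatty acid oxidation (0.06). Closest to Idh1 were the pantothenate kinase gene Pank3 (0.06), the carboxylesterase Ces1f (0.07) and the peroxisomal transporter Abcd3 (0.08), of which Ces1f was not called (edgeR adjusted p 0.0615). With a difference between the groups in each profile, such distances mainly measure a like fold change. Of the 16 alternative analyses, 11 lost the call of Mrpl32, 6 that of Pank3, 6 that of Abcd3 and 3 that of Hadha. The calls of Gsta3, Gstm1, Acaa1b and Pgm2 held in all 16.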

How the data were processed

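Counts per gene in 7 libraries were deposited by the authors as raw counts per Ensembl gene, per the file headers, and used in all tests. The deposited FPKM values, computed by the authors, were used only to compare levels. The listed length, a column of the deposited table in bases (another unit), divided CPM for levels per kilobase. Tools listed, with no role, in the submitters' processing notes are HTSeq 0.6.1, DESeq 1.18.0, TopHat2 2.0.12 and Bowtie2 2.2.3. No source used here gives the genome build or the handling of strand and shared reads. Of the 10 genes, 8 have the coordinates of GENCODE M21, so GRCm38 is used.

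In R 4.3.3, edgeR 4.0.16 tested T09 against vehicle (filterByExpr, TMM, quasi-likelihood, Benjamini-Hochberg over 14250 genes). SE is the log2 fold change over the square root of F. CPM use TMM-scaled totals. Ratios added 1 count and were tested by exact permutation (Python 3.11.15). The edgeR test was also checked on simulated counts. Alternatives were other scalings and filters, DESeq2 1.42.0, limma-voom (limma 3.58.1), a replicate block and leaving out libraries.

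The genes, lists and tests were chosen with earlier results of these data known. From each related list up to 3 called genes in each direction are named, and for each called gene of the 10 the 3 nearest profiles. Gsr, H6pd, Rpia, Acly, Scd1 and Ppara were named after their values were seen. The p-values measure the spread between mice. A count of 0 is given with a limit of 3 counts, for counting error only.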

Additional observations from a re-analysis of the deposited data

Results flagged for a closer look

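Among 45 sets of 4 vehicle values (the 10 genes, the ratios, named genes and marker shares), 4 had 1 library far from the others by Dixon's criterion (chance sets apart about 1 in 20). Of these, 3 were marker shares of counts. Vehicle replicate 4 had 0.0241% in adipocyte markers, with 8.31e-04% to 0.00296% in the other vehicle libraries. Vehicle replicate 1 had 0.0816% in pancreatic acinar markers, with 0.00333% to 0.00517% in the others. It also had 3.79e-04% in Brunner gland and gastric markers, with 1.95e-05% to 4.75e-05% in the others. Without vehicle replicate 1, 3 of the 10 genes were still called higher, and the log2 fold change of Me1 was 2.13 (edgeR adjusted p 0.0032). Scd1, looked at after its values were seen, was at 503 CPM in vehicle replicate 4 and at 7.57 to 52.3 CPM in the other vehicle libraries. The part of these tissues in the results was not tested.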

How the results depend on the processing

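Me1 was called in all 16 alternatives (log2 fold change 2.06 to 2.48). Genes called over the whole table numbered 205 higher and 409 lower; DESeq2 called 372 and 719, and leaving out each library gave 90 to 296 and 161 to 523. Of the 10 genes 1 to 3 were then called, with G6pdx at 0.47 to 0.61 and Idh1 at 0.61 to 0.79. The deviations of the 2 libraries numbered 1 correlated at 0.2562, the highest value of any vehicle and T09 pair. Those numbered 2 and 3 did not deviate together (correlations 0.0302 and -0.027). Only T09 replicate 1 was most like its own number, so the numbers were not taken to pair mice. A replicate block, which drops vehicle replicate 4, called 113 higher and 167 lower, and 1 of the 10 genes, with G6pdx at 0.49 (edgeR adjusted p 0.0692) and Idh1 at 0.61 (edgeR adjusted p 0.106). The block gave ratios of 2.00 (Me1/Me2), 2.81 (Me1/Me3), 1.68 (Me1/Idh1) and 0.36 (G6pdx/Tkt), in a design too small to pass. Without vehicle replicate 4 and T09 replicate 1 they were 2.09, 2.84, 1.78 and 0.44, and with each library left out 1.83 to 2.04, 2.39 to 2.81, 1.35 to 1.68 and 0.36 to 0.51, again too small to pass. Taldo1, never called, turned from -0.00330 to 0.0001 with TMM without abundant and marker genes, 0.0315 with the block, 0.0893 without vehicle replicate 4 and T09 replicate 1, and ran from -0.0535 to 0.0566 with each library left out. The cause was not tested. Me3 has no value with a minimum of 1 CPM; its few counts limit it to large changes.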

Other observations

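The order of the 10 genes, and shares of summed levels, depended on the length used. The deposited FPKM values imply a length of 1090 bases for Idh1, where the same table lists 2302, and 1972 bases for Me1, where it lists 3292. For 7 of the 10 genes the implied length was within 1% of the mean transcript length in GENCODE M21. For Me2 it was the listed 2455 bases. By FPKM, Idh1 stood above Me2 in vehicle mice (442 ± 69.7 against 238 ± 26.3, SD, n = 4), whereas per kilobase of listed length Me2 had the higher mean. With T09 the FPKM of Idh1 also stood above that of Taldo1 (690 ± 52.2 against 663 ± 18.3, SD, n = 3), with ranges that overlapped. The oxidative part of the 5 pentose phosphate genes was 25.3% ± 0.893 (SD, n = 4) of their FPKM with vehicle and 28.2% ± 1.00 (SD, n = 3) with T09, higher in both groups than per kilobase of listed length. Fold changes within a gene do not use the length.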
